A study of Mus musculus with 12 samples.

Results

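The transcripts examined were those of the potassium channel genes, taken as the protein-coding genes of the deposited YTHDF1 table whose symbol is Kcn followed by letters and a number. There were 68 of them among the 13438 protein-coding genes and 16716 genes listed there, out of 55573 genes in the count table, and all 68 had enough counts to be tested. A further 25 protein-coding genes with such a symbol in the count table were not in the listed set and were not analysed further. Hippocampal neurons were taken from newborn pups of the inbred mouse strain C57BL/6 and kept in primary culture for 14 days, and RNA bound to each protein was recovered from their lysate by immunoprecipitation and sequenced (RIP-seq). The 12 libraries form 4 groups of 3 replicates, namely Input (total RNA of the lysate) and RNA recovered with antibodies against endogenous YTHDF1, YTHDF2 or YTHDF3. All groups came from unmodified neurons, pups of both sexes were pooled, and Ara-C had been added to every culture to limit the growth of glia. Enrichment means more of an RNA than in Input, with nonspecific recovery included, since no control antibody entered the comparisons.

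Potassium channels let potassium leave the cell, which sets the resting potential, ends the action potential and limits repetitive firing. Most are built of pore subunits, joined by auxiliary subunits that change their gating or their delivery to the membrane, and hippocampal neurons place different channels in the soma, dendrites, axon initial segment and terminals. The YTHDF proteins are cytoplasmic readers of N6-methyladenosine (m6A), a methylated adenosine in RNA, and have been tied to the translation and decay of transcripts that carry it. By role, the 68 genes comprised 14 voltage-gated pore subunits of the Kv1 to Kv4 families, 9 electrically silent Kv modifiers, 4 KCNQ (M-current) subunits, 7 ether-a-go-go (EAG) family subunits, 7 calcium- or sodium-activated pores, 9 inward rectifiers, 8 two-pore-domain leak channels and 10 auxiliary subunits.

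m6A was not measured in these libraries, but its sequence context can be read from the annotated transcripts. The motif GGACT, a frequent form of the m6A consensus, was searched on the transcript strand of 1 representative transcript per gene (GENCODE M21, build GRCm38). It was present in 95.6% of the 68 transcripts and in 92% of all tested protein-coding genes, and in the 3′ untranslated region of 67.6% against 61.2%. Its median density was 1 per kilobase in the channel transcripts and 1.04 per kilobase in all coding genes. The windows below are the first match after the stop codon, with the motif in capitals and 10 bases on either side, for the 5 genes enriched in all 3 RIPs, then the 4 with the largest enrichment by YTHDF1, then 3 depleted auxiliary subunits. A match is only a match of letters, and whether the adenosine was methylated is unknown.
Kcna6, chr6:126738169-126738193, minus strand: ccaaatatctGGACTgtagactgtt
Kcnd2, chr6:21727790-21727814, plus strand: ccatttgtgtGGACTgaaggaaacc
Kcns2, chr15:34842000-34842024, plus strand: taacctgtgaGGACTgtttggtttg
Kcnj12, chr11:61070718-61070742, plus strand: caggagttagGGACTctgctggagg
Kcnh1, chr1:192506548-192506572, plus strand: acaggcacagGGACTtctgggtatt
Kcnb2, chr1:15714335-15714359, plus strand: agtttaggtaGGACTacctgaaggg
Kcna4, chr2:107297828-107297852, plus strand: atctacaaagGGACTatgaagtaac
Kcnj2, chr11:111074545-111074569, plus strand: agggtaagagGGACTgtttcagtat
Kcnmb2, chr3:32199134-32199158, plus strand: catttccactGGACTattagaatca
Kcnip1, chr11:33630051-33630075, minus strand: atgtagaataGGACTgaattattaa
Kcnmb4, chr10:116418053-116418077, minus strand: aagactggggGGACTtaactgcctg
Kcnip3, chr2:127457727-127457751, minus strand: aggggccattGGACTaagacctcct
Depleted transcripts thus also held the motif after their stop codon. The representative transcript of Kcnip4, which was depleted as well, held no GGACT. Those of Kcna3 and Kcnc1, both enriched by YTHDF1, held none either.

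The libraries held between 6020072 and 38909592 counts, and the channel genes took 0.180% to 0.267% of these in Input, 0.261% to 0.537% in the YTHDF1 RIP, 0.249% to 0.340% in the YTHDF2 RIP, and the YTHDF3 RIP held 0.348% to 0.484%. Levels are given as normalized CPM, a gene's count relative to the total of its library after scaling with TMM factors, which correct for differences in composition between libraries. All 8 neuronal markers were detected, and their summed level ran from 2624 to 4054 CPM in Input, 4188 to 7169 with YTHDF1, 1734 to 2735 with YTHDF2 and 2765 to 5267 with YTHDF3. Glia remained: the 7 astrocyte markers summed to 999 CPM in Input 1 but 2607 and 3334 CPM in Input 2 and 3, and the 8 oligodendrocyte lineage markers to 58.8, 422 and 368 CPM. In the YTHDF3 RIP these sums were 1204, 2648 and 2613 CPM for astrocytes and 60.1, 584 and 509 CPM for the oligodendrocyte lineage. They ran from 1220 to 2863 CPM and from 384.5 to 1473 CPM in the YTHDF1 RIP, and from 1714 to 2320 CPM and from 432.1 to 592.6 CPM in the YTHDF2 RIP. The part of this glial content in the results was not tested. In lysates of mixed cells, fewer cells of a type and less RNA per cell cannot be told apart.

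In Input, the level per kilobase of exon had a median of 2.906 CPM per kilobase over the channel genes. The highest was Kcnk1, a two-pore-domain leak channel also known as TWIK-1, at 25.4 ± 4.1 CPM per kilobase (SD, n = 3). It was followed by Kcna1, the axonal Kv1.1 subunit, at 16.6 ± 8.4, and the A-current auxiliary subunit Kcnip2 at 16.5 ± 7.1 CPM per kilobase. Kcnj10, the inward rectifier Kir4.1 of astrocytes and oligodendrocytes, stood at 14.3 ± 13 CPM per kilobase, with 8.75 CPM in Input 1 against 146 and 76.6 CPM in Input 2 and 3. The lowest was Kcnh4 at 0.208 CPM per kilobase. Of the 67 neighbouring pairs in this order, 66 overlapped between Input libraries, so the order is not resolved gene by gene.

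**Figure D1:**
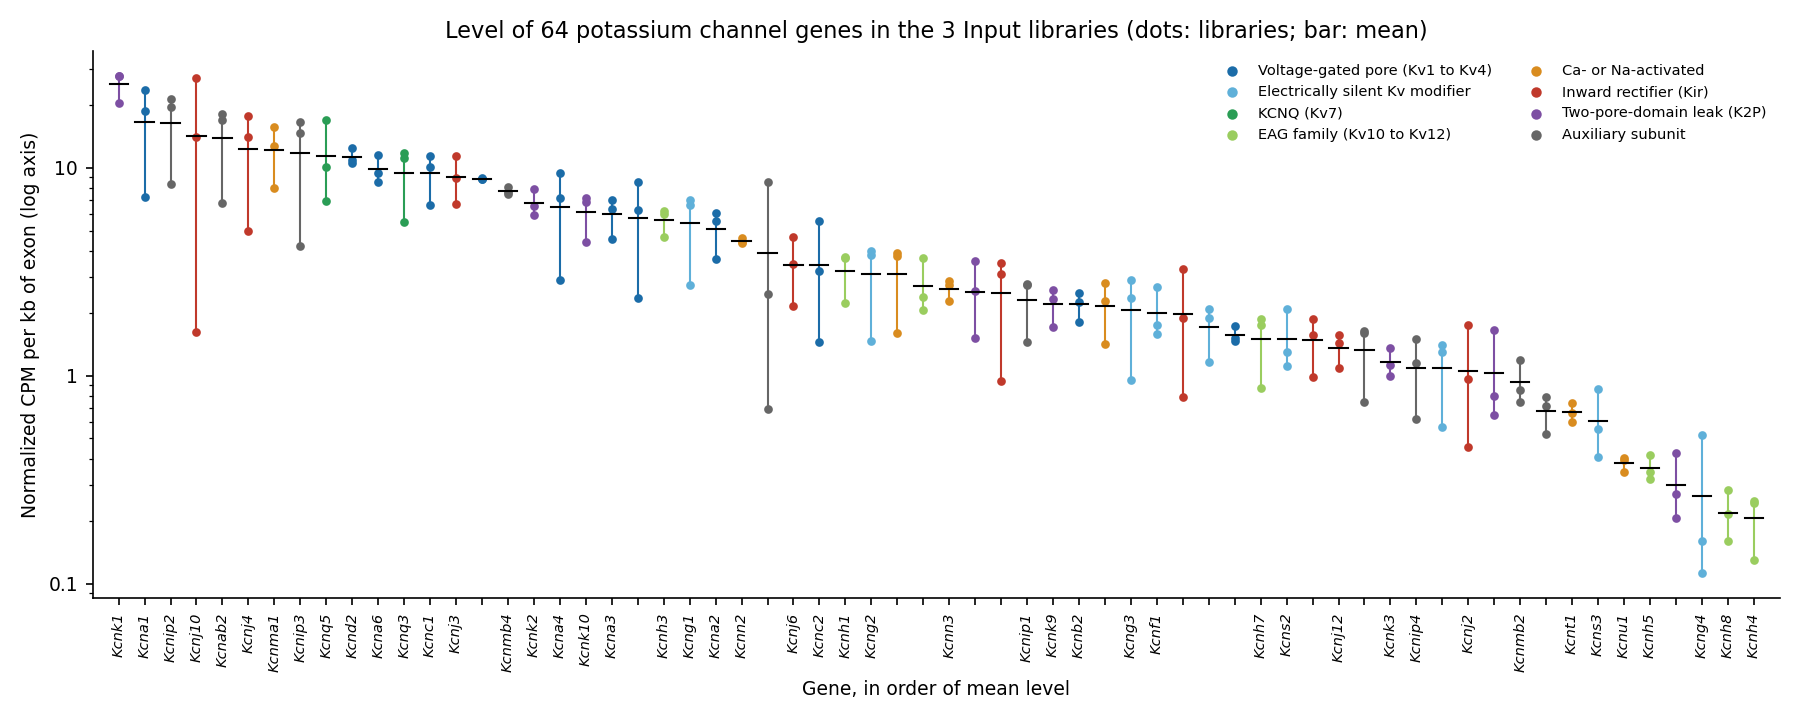
Level of 64 of the 68 potassium channel genes in Input, as TMM-normalized CPM per kilobase of exon on a log axis, with genes in order of their mean, 1 dot for each of the 3 Input libraries, a bar at the mean, colours for the class and names for the genes described in the text. Kcnk1 is the highest at 25.4 ± 4.1 and Kcnj10, at 14.3 ± 13, has the widest spread between libraries among the genes named.

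Potassium channel transcripts were called enriched in the YTHDF1 RIP more often than genes at large, and depleted less often. Of the 68 genes, 29 (42.6%) passed the enrichment threshold of a level at least 25% above Input with an adjusted p of 0.05 or less (edgeR), while 27.2% of all tested genes were. Depletion was called for 4 channel genes (5.88%) against 25.8% of all genes. The median log2 fold change of the channel genes was 0.77, against 0.02 over all genes, and 50 of 68 values were positive. The YTHDF1 RIP values of 25 genes lay wholly above the Input values and those of 5 wholly below. The share of all genes is not given for this count, so it cannot be read against the background. Left out in turn, the 12 libraries gave between 20 and 34 enriched genes and between 1 and 4 depleted genes, and the depleted count fell to 2 without Input 2, YTHDF1 RIP 2 or YTHDF1 RIP 3 and to 1 without YTHDF1 RIP 1. With the 6 Input and YTHDF1 RIP libraries alone, 23 genes were enriched and 4 depleted, beside 19.9% and 23.6% of all genes, and with these taken as pairs by number, 19 and 1, beside 14% and 17.7%, although they did not vary together by number.

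Recovery with YTHDF2 and YTHDF3 was more modest. In the YTHDF2 RIP 8 genes (11.8%) were enriched and 3 (4.41%) depleted, beside 15.7% and 19% of all genes, with a median log2 fold change of 0.19 against 0.02 over all genes. The enriched count was 5 without Input 1 or YTHDF2 RIP 3 and 13 without YTHDF1 RIP 2, and the depleted count was 1 without Input 2, YTHDF2 RIP 1 or YTHDF2 RIP 2. In the YTHDF3 RIP 11 genes (16.2%) were enriched and 4 (5.88%) depleted, beside 16.4% and 23% of all genes, with a median of 0.46 against 0.05. In this model enrichment by YTHDF2 and YTHDF3 was thus no more frequent than in the background, and depletion was rarer. For YTHDF3 the fit of same-numbered pairs, described further on, instead called 66.2% of the channel genes enriched, beside 36.3% of all genes. Without single libraries the YTHDF3 counts moved widely, with 6 enriched genes without Input 2, Input 3 or YTHDF3 RIP 2 and 17 without YTHDF1 RIP 2. Depleted genes in the YTHDF3 RIP numbered 2 without Input 1, 1 without Input 2 or YTHDF3 RIP 2, and 0 without YTHDF3 RIP 3.

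Scaling moved these splits. With library size alone and no TMM factors, the median of all genes shifted by -0.40, 0.07 and 0.33 for YTHDF1, YTHDF2 and YTHDF3, and the split of enriched and depleted channel genes became 21 and 7 for YTHDF1 and 20 and 1 for YTHDF3. With TMM factors from coding genes the all-gene medians shifted by -0.24, -0.11 and -0.04. Relative to the median of all genes the channel genes barely moved, at 0.74, 0.16 and 0.40 with library size alone and 0.75, 0.17 and 0.40 with TMM. The comparisons share the Input libraries, so their values are set side by side and an overlap between them was not tested.

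**Figure D2:**
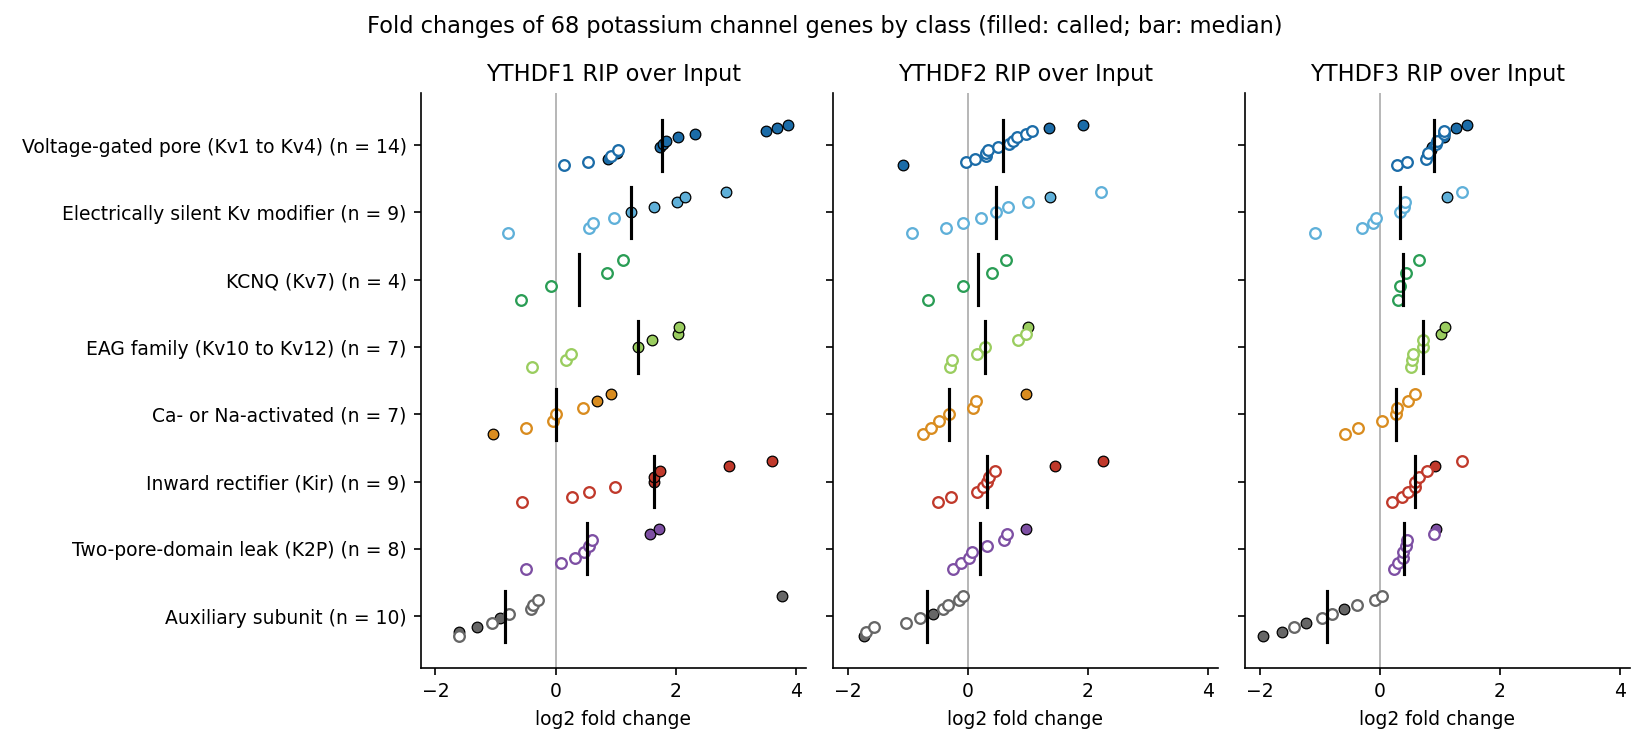
Log2 fold change of each of the 68 potassium channel genes over Input, by class, for each of the 3 proteins, with called genes marked and the class median drawn. Voltage-gated pore subunits have medians of 1.77, 0.60 and 0.90, and auxiliary subunits -0.85, -0.68 and -0.87.

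Voltage-gated pore subunits of the Kv1 to Kv4 families were the class most often enriched in the YTHDF1 and YTHDF3 RIPs. Of the 14 genes, 10 (71.4%) were enriched with YTHDF1, 2 (14.3%) with YTHDF2 and 6 (42.9%) with YTHDF3. The shares of all genes were 27.2%, 15.7% and 16.4%. Only in the YTHDF2 RIP was any of the 14 depleted, 1 gene (7.14%), beside 19% of all genes. All 14 log2 fold changes were positive in the YTHDF1 and YTHDF3 RIPs, with medians of 1.77 and 0.90, and 12 were positive in the YTHDF2 RIP, with a median of 0.60. Of the 5 Kv1 genes (Kcna1, Kcna2, Kcna3, Kcna4 and Kcna6) 4 were enriched by YTHDF1.

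The largest enrichment of all channel transcripts was that of Kcnb2, the Kv2.2 delayed rectifier, in the YTHDF1 RIP. Its level was 38.1, 34.5 and 27.6 CPM in Input and 336, 592 and 545 CPM in the YTHDF1 RIP, but 38.6, 29 and 56.8 CPM in the YTHDF2 RIP, and the YTHDF3 RIP held 76.7, 64.2 and 41.8 CPM. Every YTHDF1 RIP library was thus far above every other library, and the YTHDF2 RIP overlapped Input. The log2 fold change was 3.88 ± 0.34 (SE) for YTHDF1 (adjusted p = 9e-06), a 14.7-fold increase. It was 0.86 ± 0.31 for YTHDF3 (adjusted p = 0.044), a call lost without any 1 Input library, YTHDF2 RIP 1, YTHDF3 RIP 1 or YTHDF3 RIP 2 (adjusted p 0.0595 to 0.148).

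Kcna4, the fast-inactivating axonal Kv1.4 subunit, followed the same course. Its level was 45.6, 34.8 and 14 CPM in Input, 313, 350 and 552 CPM in the YTHDF1 RIP, 69.8, 38.8 and 91.1 CPM in the YTHDF2 RIP, and the YTHDF3 RIP held 77.8, 53.3 and 30.4 CPM. The YTHDF1 RIP stood clear of all other libraries, at a log2 fold change of 3.68 ± 0.51 (adjusted p = 0.00014), while the other RIPs overlapped Input. Kcnc2, the Kv3.2 subunit of fast-spiking interneurons, named after its values were seen, rose from 39.9, 22.9 and 10.4 CPM in Input to 220, 187 and 431 CPM in the YTHDF1 RIP, a log2 fold change of 3.51 ± 0.64 (adjusted p = 0.00079).

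Kcna6 and Kcnd2 were enriched by all 3 proteins. Kcna6, the Kv1.6 subunit, had 68.7, 56.5 and 50.7 CPM in Input, 386, 147 and 345 CPM with YTHDF1, 225, 196 and 245 CPM with YTHDF2 and 166, 167 and 148 CPM with YTHDF3. All 9 RIP libraries were above all Input libraries, and the log2 fold changes were 2.32 ± 0.31, 1.92 ± 0.30 and 1.45 ± 0.30 (adjusted p = 0.00011, 0.00089 and 0.0027). Kcnd2, the Kv4.2 subunit that carries most of the dendritic A-type current of hippocampal pyramidal cells, had 64.2, 54.4 and 56.3 CPM in Input and 215, 146 and 244, 143, 153 and 154, and 148, 134 and 141 CPM with the YTHDF1, YTHDF2 and YTHDF3 antibodies. Again no RIP library reached down to Input, and the log2 fold changes were 1.79 ± 0.19, 1.36 ± 0.19 and 1.27 ± 0.19 (adjusted p = 3.1e-05, 0.00052 and 0.00036). These 2 genes were the only ones enriched by all 3 proteins whose 3 calls were kept in every one of the 23 alternative settings. Among the 68 channel genes, 5 were enriched by all 3 proteins, beside 8.45% of all genes tested and 10% of coding genes tested. Depletion by all 3 was called for 2 channel genes, beside 13.8% and 11.6%. Shared enrichment was thus no more frequent among the channel genes than in the background, and shared depletion was rarer.

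The calls of other Kv pore subunits rested on fewer libraries. Kcna1 had 113, 89.8 and 34.6 CPM in Input and 286, 89.7 and 418 CPM in the YTHDF1 RIP, so that YTHDF1 RIP 2 lay within the Input range. Its log2 fold change of 1.74 ± 0.66 (adjusted p = 0.044) lost its call without Input 2, Input 3, YTHDF1 RIP 1, YTHDF1 RIP 3, YTHDF2 RIP 1 or YTHDF3 RIP 2 (adjusted p 0.0561 to 0.167). Kcna2, its usual axonal partner, had 66.2, 72.4 and 43.6 CPM in Input and 108, 51.6 and 188 CPM in the YTHDF1 RIP and did not pass (0.93 ± 0.43, adjusted p = 0.091), but passed without YTHDF1 RIP 2 (adjusted p = 0.0162). With the length trend of each library removed, its log2 fold change was -0.10. Kcnc1, the Kv3.1 subunit, was called in the YTHDF1 RIP (1.02 ± 0.37, adjusted p = 0.034) with overlapping values and in the YTHDF3 RIP (1.07 ± 0.37, adjusted p = 0.037). The first call was lost without Input 2, Input 3, YTHDF1 RIP 1 or YTHDF1 RIP 3 (adjusted p 0.0675 to 0.166) and the second without Input 2, Input 3, YTHDF3 RIP 1 or YTHDF3 RIP 2 (adjusted p 0.0773 to 0.117).

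Kcna3, the Kv1.3 subunit known from lymphocytes and also made in neurons, was the only channel gene enriched by 1 protein and depleted by another in the model of all 12 libraries. Its level was 13.4, 12.1 and 8.68 CPM in Input, 33.5, 40.1 and 66.6 CPM in the YTHDF1 RIP, 5.45, 4.48 and 6.26 CPM in the YTHDF2 RIP, and the YTHDF3 RIP held 18.3, 14.2 and 9.56 CPM. The YTHDF1 RIP was above and the YTHDF2 RIP below all libraries of the other groups, while the YTHDF3 RIP overlapped Input. The log2 fold change was 2.04 ± 0.31 for YTHDF1 (adjusted p = 0.00027) and -1.07 ± 0.32 for YTHDF2 (adjusted p = 0.023). The direct difference between these RIPs was 3.11 ± 0.33 (adjusted p = 8.6e-05). The depletion by YTHDF2 lost its call without Input 1, Input 2, YTHDF2 RIP 1 or YTHDF2 RIP 2 (adjusted p 0.0625 to 0.0794).

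**Figure D3:**
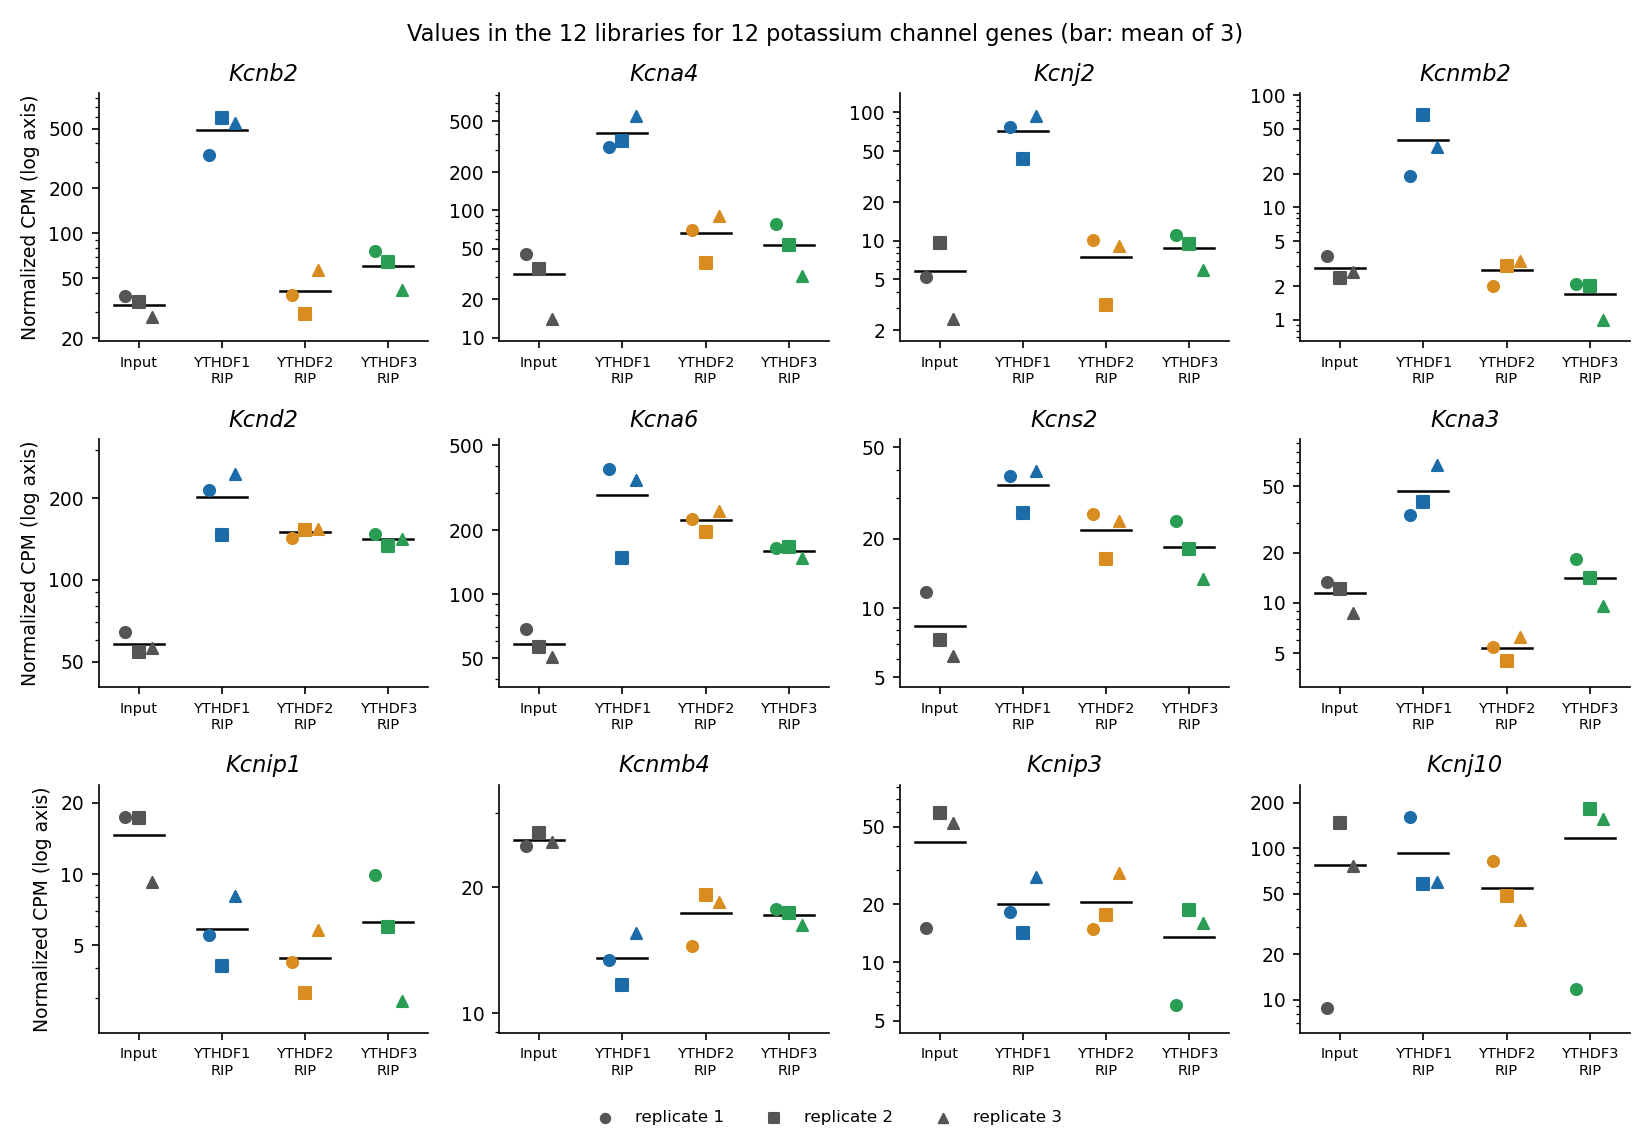
TMM-normalized CPM of selected potassium channel genes in each of the 12 libraries, on log axes, with a symbol for each replicate and a bar at the group mean. The YTHDF1 RIP values of Kcnb2 (336 to 592) lie above all other libraries, those of Kcna6 and Kcnd2 are above Input in all 3 RIPs, and those of Kcnmb4 are below Input in all 3.

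Among the 9 electrically silent modifiers, subunits that form no channel alone but alter Kv2 channels, 5 (55.6%) were enriched by YTHDF1. With YTHDF2 1 (11.1%) was enriched and with YTHDF3 1 (11.1%), and none was depleted by any protein. Of all genes, 27.2%, 15.7% and 16.4% were enriched by the 3 proteins and 25.8%, 19% and 23% depleted. The median log2 fold changes of the modifiers were 1.26, 0.48 and 0.34. The gene called in all 3 RIPs was Kcns2, a Kv9 subunit, with 11.7, 7.25 and 6.21 CPM in Input and 37.6, 25.9 and 39.6, 25.5, 16.3 and 23.8, and 23.8, 18.1 and 13.4 CPM with the YTHDF1, YTHDF2 and YTHDF3 antibodies. All RIP libraries were above Input, with log2 fold changes of 2.03, 1.38 and 1.13 (adjusted p = 0.00026, 0.0054 and 0.011), none of which lost its call without any 1 library. The other 4 enriched by YTHDF1, named after their values were seen, were Kcnf1, Kcng3, Kcng4 and Kcns3. Kcng3 had the largest change, 2.83 ± 0.62 (adjusted p = 0.0026). The calls of Kcnf1 and Kcng4 were each lost without any of several libraries, the former without 10 of the 12 (adjusted p 0.0523 to 0.189) and the latter without Input 1, Input 3, YTHDF1 RIP 1, YTHDF1 RIP 3, YTHDF2 RIP 1 or YTHDF2 RIP 3 (adjusted p 0.0557 to 0.141), and that of Kcns3 was lost without Input 3 (adjusted p = 0.0506). The best expressed modifiers per kilobase, Kcng1 and Kcng2, passed in no RIP without pairing. Kcng2 did not pass within the YTHDF3 pairs either (-0.03, adjusted p = 0.87).

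The KCNQ subunits described here did not pass in the YTHDF1 RIP. Kcnq3, whose protein takes part in the M-current, had 173, 164 and 80.4 CPM in Input and 187, 119 and 450 CPM in the YTHDF1 RIP, and the change of 0.86 ± 0.52 did not pass (adjusted p = 0.19) and became -0.42 with the length trend removed. Kcnq5, another neuronal subunit, had 131, 77.6 and 53.5 CPM in Input and 160, 95.2 and 315 CPM in the YTHDF1 RIP and did not pass either (1.12 ± 0.49, adjusted p = 0.074).

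The EAG family covers the EAG, ERG and ELK channels. Of its 7 genes, 4 (57.1%) were enriched by YTHDF1, 1 (14.3%) by YTHDF2 and 2 (28.6%) by YTHDF3, beside 27.2%, 15.7% and 16.4% of all genes. Kcnh1, the EAG1 subunit, was called in all 3 RIPs, with 26.9, 27.2 and 16.4 CPM in Input and 90, 38.3 and 86.2, 58.5, 33.6 and 49.5, and 62.6, 51.3 and 36.7 CPM with the YTHDF1, YTHDF2 and YTHDF3 antibodies. All RIP libraries were above Input, and the log2 fold changes were 1.60, 1.00 and 1.09 (adjusted p = 0.0028, 0.044 and 0.027). The YTHDF2 call was lost without any 1 Input library, YTHDF2 RIP 1, YTHDF2 RIP 3 or YTHDF3 RIP 2 (adjusted p 0.0565 to 0.158), and the YTHDF3 call without Input 3, YTHDF3 RIP 1 or YTHDF3 RIP 2 (adjusted p 0.0574 to 0.0898). Kcnh7, the ERG3 subunit, had 26.9, 28.6 and 13.3 CPM in Input and 44.7, 46.6 and 86.5 CPM in the YTHDF1 RIP. That change of 1.37 ± 0.45 (adjusted p = 0.023) lost its call without Input 3 or YTHDF1 RIP 3 (adjusted p = 0.101 and 0.102). The other 2 enriched by YTHDF1, named after their values were seen, were Kcnh5, the EAG2 subunit, at 2.04 ± 0.36 (adjusted p = 0.00066) and Kcnh8, an ELK channel, at 2.06 ± 0.34 (adjusted p = 0.00046). Kcnh3, another ELK channel and the family's highest in Input per kilobase, passed in no RIP without pairing.

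Inward rectifiers hold the resting potential and answer to G proteins or ATP in some members. Of 9 genes, 5 (55.6%) were enriched by YTHDF1, 2 (22.2%) by YTHDF2 and 1 (11.1%) by YTHDF3, with medians of 1.64, 0.32 and 0.60. The enriched shares of all genes were 27.2%, 15.7% and 16.4%. Kcnj2, the strong rectifier Kir2.1, had 5.25, 9.59 and 2.46 CPM in Input and 76.7, 43 and 93.7 CPM in the YTHDF1 RIP, but 10.1, 3.14 and 9.16 and 11.1, 9.44 and 5.95 CPM in the YTHDF2 and YTHDF3 RIPs. Without pairing only the YTHDF1 RIP passed, at a log2 fold change of 3.61 ± 0.54 (adjusted p = 0.00023). Within the same-numbered YTHDF3 pairs, Kcnj2 was enriched at 0.70 ± 0.18 (adjusted p = 0.0017), higher in 2 of the 3. Its relative Kcnj12 (Kir2.2) was instead called in all 3 RIPs, from 3.96, 4.32 and 3 CPM in Input to 15.8, 7.63 and 12.1, 10.1, 8.81 and 12.3, and 6.96, 8.62 and 5.82 CPM. The log2 fold changes of Kcnj12 were 1.64, 1.46 and 0.92 (adjusted p = 0.00068, 0.003 and 0.024), and the YTHDF3 call was lost without Input 1, Input 3 or YTHDF3 RIP 2 (adjusted p 0.0525 to 0.0831).

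Both main subunits of the G protein-gated GIRK channels of hippocampal dendrites were enriched by YTHDF1. Kcnj3 (GIRK1) had 59.7, 46.7 and 35 CPM in Input and 123, 117 and 201 CPM in the YTHDF1 RIP, and Kcnj6 (GIRK2) 35.6, 26.3 and 16.5 CPM against 82.7, 82 and 99.2 CPM. The groups did not overlap for either gene, and the log2 fold changes were 1.64 ± 0.32 (adjusted p = 0.0013) and 1.75 ± 0.33 (adjusted p = 0.001). In the YTHDF2 RIP both overlapped Input, with 56.5, 38.1 and 75.2 CPM for Kcnj3 and 29.4, 13.9 and 21.8 CPM for Kcnj6. With YTHDF3 neither passed without pairing. Within the same-numbered YTHDF3 pairs both were enriched, at 0.72 and 0.54 (adjusted p = 4.5e-07 and 0.00012). Kcnj4 (Kir2.3) had 38.3, 30.3 and 10.7 CPM in Input, 332, 37.5 and 222 CPM in the YTHDF1 RIP and 155, 49.1 and 174 CPM in the YTHDF2 RIP. The YTHDF1 values overlapped Input through YTHDF1 RIP 2, and the log2 fold changes were 2.89 ± 0.78 (adjusted p = 0.0085) and 2.25 ± 0.76 (adjusted p = 0.038). The YTHDF2 call was lost without any 1 Input library, YTHDF2 RIP 1, YTHDF2 RIP 3 or YTHDF3 RIP 2 (adjusted p 0.0502 to 0.12). In the YTHDF3 RIP Kcnj4 had 93.35, 79.62 and 32.21 CPM and did not pass without pairing (1.37). Within the same-numbered pairs it was enriched by YTHDF3 at 1.45 ± 0.11 (adjusted p = 3.1e-11), higher in all 3.

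Kcnj10, the glial channel, varied more within groups than between them. It had 8.75, 146 and 76.6 CPM in Input, 162, 57.8 and 59.5 CPM in the YTHDF1 RIP, 82.4, 48.4 and 33.4 CPM in the YTHDF2 RIP, and the YTHDF3 RIP held 11.8, 181 and 156 CPM. The low libraries, Input 1 and YTHDF3 RIP 1, had oligodendrocyte lineage sums of 58.8 and 60.1 CPM. Their astrocyte sums were 999 and 1204 CPM. The highest library of the YTHDF1 RIP had its group's highest oligodendrocyte lineage sum, 1473 CPM, but its lowest astrocyte sum, 1220 CPM. In the YTHDF2 RIP the lowest library, replicate 3, had the highest sums of its group, 592.6 and 2320 CPM. The log2 fold change for YTHDF1 was 0.27 ± 0.94 (adjusted p = 0.83), and it was -0.26 without Input 1 and -0.39 without YTHDF1 RIP 1.

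Two-pore-domain channels carry background leak current. Of 8 genes, 2 (25%) were enriched by YTHDF1, 1 (12.5%) by YTHDF2 and 1 (12.5%) by YTHDF3. These shares were near the 27.2%, 15.7% and 16.4% of all genes. Kcnk10, the stretch- and lipid-gated TREK-2 channel, named after its values were seen, had 60.5, 38.8 and 63.1 CPM in Input and 153, 189 and 195 CPM in the YTHDF1 RIP, a log2 fold change of 1.73 ± 0.23 (adjusted p = 0.00012). Without pairing the YTHDF2 and YTHDF3 RIPs did not pass, with 51.6, 68.4 and 44.6 and 72.2, 56.6 and 71.6 CPM. Within the same-numbered pairs described further on, Kcnk10 was enriched by YTHDF3 at 0.38 ± 0.10 (adjusted p = 0.0021), higher in all 3. The acid-sensitive TASK channels were also named after the values were seen. Kcnk3 (TASK-1) was enriched by YTHDF1 (1.57 ± 0.36, adjusted p = 0.0032). Kcnk9 (TASK-3) was called in the YTHDF2 and YTHDF3 RIPs (0.97 ± 0.23 and 0.94 ± 0.22, adjusted p = 0.0067 and 0.0063). Its levels were 28.9, 21.1 and 31.7 CPM in Input and 32.3, 39.2 and 42, 40.8, 70.3 and 48.9, and 50.1, 49.9 and 56 CPM with the YTHDF1, YTHDF2 and YTHDF3 antibodies. It was above Input in all 9 RIP libraries, and the value for YTHDF1 did not pass. No direct comparison between RIPs called either TASK gene. The highest channel in Input, Kcnk1, had 62.2, 61.9 and 46.2 CPM there and 135, 59.9 and 64 CPM in the YTHDF1 RIP and passed in no RIP without pairing (0.60 ± 0.31 for YTHDF1, adjusted p = 0.12), although it passed with the length trend removed, at 0.90 (adjusted p = 0.0375). Kcnk2, the TREK-1 channel, did not pass there either.

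Calcium- and sodium-activated channels, which shape the afterhyperpolarization, were enriched by YTHDF1 and YTHDF2 about as often as genes at large. Of 7 genes, 2 (28.6%) were enriched and 1 (14.3%) depleted by YTHDF1, beside 27.2% and 25.8% of all genes. With YTHDF2, 1 (14.3%) was enriched and 0 depleted, beside 15.7% and 19%. In the edgeR model of all 12 libraries none was called for YTHDF3, where 16.4% of all genes were enriched and 23% depleted. The median log2 fold changes of the class were 0.01, -0.32 and 0.27, and at an unadjusted p below 0.05 no gene of the class passed for YTHDF3 in that model either. Kcnma1, the BK pore, had 267, 216 and 136 CPM in Input and 189, 193 and 471 CPM in the YTHDF1 RIP, where 1 library set the mean. Its log2 fold change of 0.46 (adjusted p = 0.41) became -0.11 without YTHDF1 RIP 3 and -0.96 with the length trend removed. Kcnn2, the SK2 channel of dendritic spines, had 32.5, 34.5 and 32.8 CPM in Input and ranged from 25 to 49.8 CPM over the RIP libraries, passing in none. Kcnt1, the sodium-activated Slack channel, had 6.32, 7.03 and 5.68 CPM in Input and 15, 8.2 and 12.9 and 11.6, 11.2 and 14.5 CPM in the YTHDF1 and YTHDF2 RIPs. These were called at 0.92 and 0.97 (adjusted p = 0.017 and 0.021). The first call was lost without Input 3 or YTHDF1 RIP 1 (adjusted p = 0.0838 and 0.0616) and the second without Input 1, Input 3 or YTHDF2 RIP 3 (adjusted p 0.0579 to 0.0756). The others called for YTHDF1, named after their values were seen, were Kcnn3 (SK3), enriched at 0.69 ± 0.21 (adjusted p = 0.015), and Kcnu1, depleted at -1.04 ± 0.40 (adjusted p = 0.046). The Kcnn3 call was lost without Input 3 or YTHDF1 RIP 3 (adjusted p = 0.1 and 0.0696) and its value became -0.20 with the length trend removed, and the call of Kcnu1, whose mean count was the lowest of all the channel genes, without 10 of the 12 libraries (adjusted p 0.0549 to 0.168).

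Auxiliary subunits had negative medians, of -0.85, -0.68 and -0.87 for YTHDF1, YTHDF2 and YTHDF3. Of 10 genes, 3 (30%) were depleted by YTHDF1, 2 (20%) by YTHDF2 and 4 (40%) by YTHDF3, beside 25.8%, 19% and 23% of all genes, so that the first 2 shares were near the background, and 1 was enriched, by YTHDF1. All 4 Kcnip genes, which encode the calcium-binding KChIP partners of Kv4 channels, had negative values in every RIP, with medians of -1.18, -1.36 and -1.42. Their pore partner Kcnd2 was enriched in every RIP, as described above.

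Kcnip1 had 17.4, 17.3 and 9.21 CPM in Input and 5.53, 4.07 and 8.05, 4.25, 3.14 and 5.81, and 9.95, 6 and 2.91 CPM with the YTHDF1, YTHDF2 and YTHDF3 antibodies. Only YTHDF3 RIP 1 reached into the Input range, and the log2 fold changes were -1.31 ± 0.44, -1.73 ± 0.46 and -1.22 ± 0.43 (adjusted p = 0.026, 0.013 and 0.042). Kcnip3, also known as DREAM, a calcium-dependent repressor of transcription, had 15, 58.9 and 52.3 CPM in Input and 6.07, 18.7 and 16.1 CPM in the YTHDF3 RIP. The groups overlapped through Input 1, and YTHDF3 passed at -1.62 ± 0.53 (adjusted p = 0.029). Kcnip4 was low, with 5.48, 4.17 and 2.25 CPM in Input and 0.463 to 2.35 CPM in the RIPs, and was called for YTHDF1 (-1.60 ± 0.58, adjusted p = 0.036) and YTHDF3 (-1.95 ± 0.58, adjusted p = 0.019). Kcnip2, the highest of the 4 in Input, had 68.3, 74.9 and 29.1 CPM there and passed in no RIP without pairing.

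These Kcnip calls depended on single libraries. For Kcnip1 the YTHDF1 call was lost without Input 1, Input 2, YTHDF1 RIP 1 or YTHDF1 RIP 2 (adjusted p 0.0562 to 0.0774), the YTHDF2 call without YTHDF2 RIP 2 (adjusted p = 0.0505), and the YTHDF3 call without Input 1, Input 2, YTHDF1 RIP 1, YTHDF2 RIP 1, YTHDF3 RIP 2 or YTHDF3 RIP 3 (adjusted p 0.051 to 0.12). For Kcnip3 the YTHDF3 call was lost without Input 2, Input 3, YTHDF3 RIP 1 or YTHDF3 RIP 3 (adjusted p 0.0537 to 0.108). For Kcnip4 the YTHDF1 call was lost without Input 1, Input 2 or any 1 YTHDF1 RIP library (adjusted p 0.0551 to 0.116) and the YTHDF3 call without Input 1, YTHDF3 RIP 2 or YTHDF3 RIP 3 (adjusted p 0.0626 to 0.0669). Without those libraries the log2 fold changes stayed between -0.87 and -1.84.

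The beta subunits of the BK channel diverged. Kcnmb4, the neuronal beta4 subunit, had 25, 26.9 and 25.6 CPM in Input and 13.4, 11.7 and 15.6, 14.5, 19.1 and 18.4, and 17.8, 17.4 and 16.2 CPM with the YTHDF1, YTHDF2 and YTHDF3 antibodies. All 9 RIP libraries were below Input, at log2 fold changes of -0.93 ± 0.17, -0.58 ± 0.17 and -0.59 ± 0.17 (adjusted p = 0.0008, 0.021 and 0.014). The YTHDF1 call was kept in all 23 alternatives. The YTHDF2 call was lost without Input 2 or YTHDF2 RIP 1 (adjusted p = 0.0667 and 0.0859) and the YTHDF3 call without Input 2, YTHDF3 RIP 2 or YTHDF3 RIP 3 (adjusted p 0.0512 to 0.0567). Kcnmb2, the inactivating beta2 subunit, had 3.73, 2.34 and 2.68 CPM in Input and 19, 66.9 and 34.6 CPM in the YTHDF1 RIP, but 1.99, 2.99 and 3.35 and 2.1, 2 and 0.992 CPM in the YTHDF2 and YTHDF3 RIPs. It was the only auxiliary subunit enriched anywhere, at 3.78 ± 0.47 for YTHDF1 (adjusted p = 6.8e-05), and its call was kept in all 23 alternatives. Kcnab2, the Kv1 beta subunit with the highest Input level of the 3 Kcnab genes, had 127, 119 and 47.1 CPM in Input and 91.2, 41.7 and 108 CPM in the YTHDF1 RIP and passed in no RIP in the model of all libraries (-0.28 ± 0.52 for YTHDF1, adjusted p = 0.67).

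The RIPs were then compared with each other, to ask whether a transcript was recovered more with 1 protein than with another. At a fold of at least 2, 13 channel genes (19.1%) were higher in the YTHDF1 than in the YTHDF2 RIP and 1 (1.47%) was lower, beside 11.4% and 6.1% of all genes. Against the YTHDF3 RIP, 11 (16.2%) were higher in the YTHDF1 RIP and 0 lower, beside 10.8% and 3.63% of all genes. At an unadjusted p below 0.05, 20 genes differed between these RIPs in either direction, and 23 between the YTHDF1 and YTHDF2 RIPs. The share of all genes at this unadjusted threshold is not given, here or for the next comparison. Such counts cannot be read against the background. Between the YTHDF2 and YTHDF3 RIPs, 0 were higher in YTHDF2 and 1 in YTHDF3, beside 3.95% and 1.16% of all genes, with 5 at an unadjusted p below 0.05. With library size alone the split was 12 and 3 for YTHDF1 against YTHDF2 and 7 and 9 for YTHDF1 against YTHDF3, and with TMM factors from coding genes the latter was 10 and 2. A test of any difference among the 3 RIPs passed for 15 of the 68 genes and for 32.3% of all genes, and leaving out YTHDF1 RIP 2 raised the count to 23.

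The genes that set YTHDF1 apart were those with the largest enrichment by it. Kcnb2 was higher in the YTHDF1 than in the YTHDF2 RIP by 3.56 (adjusted p = 4.3e-05) and than in the YTHDF3 RIP by 3.01 (adjusted p = 0.00014) on the log2 scale. For Kcnmb2 these differences were 3.85 (adjusted p = 0.00019) and 4.57 (adjusted p = 0.00011), for Kcnj2 3.24 (adjusted p = 0.0011) and 3.01 (adjusted p = 0.0021), and for Kcna4 2.60 (adjusted p = 0.0022) and 2.91 (adjusted p = 0.0018). The YTHDF1 call against YTHDF3 was kept for only these 4 genes in all 23 alternatives, while 11 of the 13 calls against YTHDF2 were kept. The GIRK subunits were higher with YTHDF1 than with YTHDF2, by 1.38 for Kcnj3 (adjusted p = 0.0078) and 2.02 for Kcnj6 (adjusted p = 0.0011). Kcnj6 was also higher with YTHDF1 than with YTHDF3 by 1.28 (adjusted p = 0.015), which was lost without YTHDF3 RIP 2 or YTHDF3 RIP 3 (adjusted p = 0.0537 and 0.062). The 1 gene higher in the YTHDF3 than in the YTHDF2 RIP was Kcna3, at -1.37 ± 0.32 for YTHDF2 against YTHDF3 (adjusted p = 0.027), lost without any 1 YTHDF2 RIP library, YTHDF3 RIP 1 or YTHDF3 RIP 2 (adjusted p 0.0619 to 0.105).

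Input and YTHDF3 RIP libraries of the same number varied together, which allowed the YTHDF3 enrichment to be read within pairs. With the 6 libraries alone and the number as a block, 45 of the 68 genes (66.2%) were enriched and 10 (14.7%) depleted, beside 36.3% and 32.2% of all genes, in place of 11 and 4 without pairing in the model of all libraries, or 15 and 2 with the 6 libraries unpaired. The median log2 fold change hardly moved, at 0.51 against 0.11 over all genes. In all 3 pairs, 46 genes were higher and 12 lower in the RIP, counts for which the share of all genes is not given. Leaving out 1 pair gave between 34 and 42 enriched and between 8 and 9 depleted genes.

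Within the pairs, the Kv1 to Kv4 pore subunits and most auxiliary subunits moved in opposite directions. All 14 voltage-gated pore subunits were enriched and higher in all 3 pairs, with a median fold of 1.94. The test also called enrichment for 6 of 7 EAG family genes, 8 of 9 inward rectifiers and 6 of 8 two-pore-domain channels. Among silent modifiers 4 were enriched and 1 depleted, and among calcium- or sodium-activated channels 3 and 1. Of the 10 auxiliary subunits 8 were depleted, each lower in all 3 pairs, and 0 enriched, with a median fold of 0.564. Kcnip2 was depleted at -0.92 ± 0.10 (adjusted p = 1.3e-08) and Kcnip3 at -1.51 ± 0.11 (adjusted p = 9.5e-12). Other genes that had not passed without pairing were called here as well. Kcnq3 was enriched at 0.46 ± 0.09 (adjusted p = 0.00012) and Kcnq5 at 0.69 ± 0.10 (adjusted p = 1.8e-06), each higher in all 3 pairs. Kcng1, Kcnh3, Kcnk1 and Kcnk2 were enriched at 0.40, 0.56, 0.44 and 0.43 and higher in all 3 pairs, while Kcnab2 was depleted at -0.35 ± 0.09 (adjusted p = 0.0018) and lower in all 3. Kcnma1 was enriched at 0.48 ± 0.09 (adjusted p = 7.6e-05). Kcnj10 was also enriched within pairs, at 0.69 ± 0.13 (adjusted p = 3.4e-05), in pairs whose oligodendrocyte lineage sums were 58.8 and 60.1, 422 and 584, and 368 and 509 CPM. The astrocyte sums of Input and RIP in these pairs were 999 and 1204, 2607 and 2648, and 3334 and 2613 CPM. Kcnmb2, enriched by YTHDF1, was depleted within the YTHDF3 pairs at -0.73 ± 0.25 (adjusted p = 0.012).

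**Figure D4:**
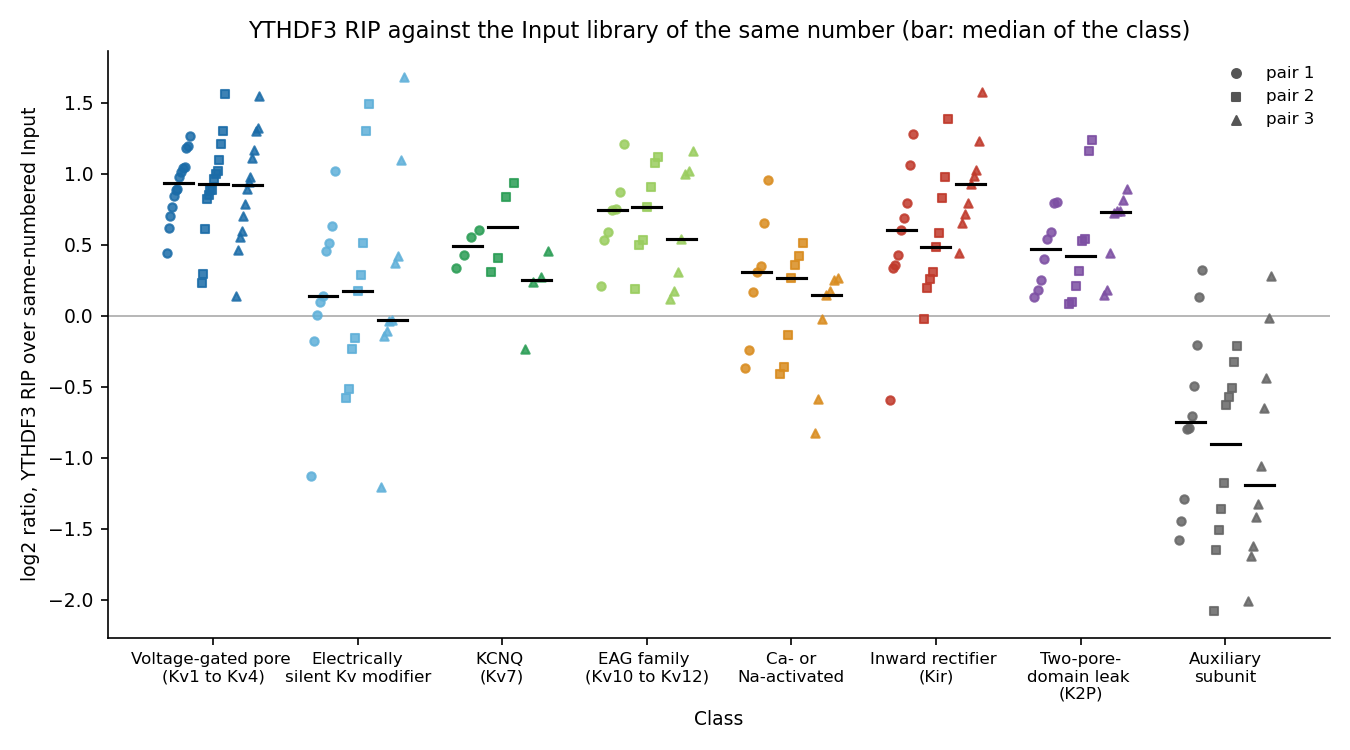
Log2 ratio of YTHDF3 RIP to Input in each same-numbered pair, for the 68 potassium channel genes by class, with 1 point per pair. All 14 voltage-gated pore subunits lie above 0 in all 3 pairs, and 8 of the 10 auxiliary subunits lie below 0 in all 3.

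The level of the channel genes relative to mean Input varied between the YTHDF1 replicates. A ratio to mean Input does not remove variation that a RIP library shares with its own input. The median log2 ratio of the channel genes to mean Input was 1.01, -0.02 and 1.21 in YTHDF1 RIP 1 to 3, against 0.31, -0.15 and 0.50 with YTHDF2, 0.77, 0.61 and 0.07 with YTHDF3 and 0.24, 0.15 and -0.40 in the Input libraries themselves. YTHDF1 RIP 2 was thus low against mean Input for the class as a whole. Across all tested genes it varied most closely with Input 3, whose median here was -0.40. Whether these 2 libraries belong together was not tested. YTHDF1 RIP 2 was nonetheless the highest of the 3 for Kcnb2 and Kcnmb2, as their levels above show.

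Length is a property that moved with recovery across all genes, and the channel genes followed it less closely. Across tested coding genes, Spearman's rho between transcript length and log2 fold change was 0.606, 0.41 and 0.614 for YTHDF1, YTHDF2 and YTHDF3. It was 0.365, 0.294 and 0.486 across the 68 channel genes, and 0.19, 0.0616 and 0.314 across the 58 without the auxiliary subunits, a subset chosen after the data were seen. These are descriptions across genes of the same libraries. The median representative transcript was 3808.5 bases for the channel genes and 3149.5 bases for coding genes. Among the channel genes called for YTHDF1, it was 4058 bases for the enriched and 1969 bases for the depleted. The length trend removed from each library was one on exonic length, fitted over all tested genes. With it removed, the median of the channel genes was 0.33, -0.01 and 0.32 for YTHDF1, YTHDF2 and YTHDF3. Of the 68 channel genes, 22 were then enriched with YTHDF1, 5 with YTHDF2 and 4 with YTHDF3. Of all genes, 22.2%, 12.9% and 15% were. The share of the channel genes was thus above that of all genes for YTHDF1 and below it for YTHDF2 and YTHDF3.

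The number of exons, examined after the data were seen, showed an opposite sign in the channel genes. Across coding genes rho with log2 fold change was 0.249, 0.319 and 0.345 for the 3 proteins, and across the channel genes it was -0.409, -0.3 and -0.255. The median channel transcript had 4 exons against 9 in coding genes, and the median was 3 in those enriched by YTHDF1, 8 in those depleted and 7 in the rest. Many Kv1 and Kir genes hold their whole coding sequence in 1 exon, so exon number and channel class go together here and their parts cannot be told apart.

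**Figure D5:**
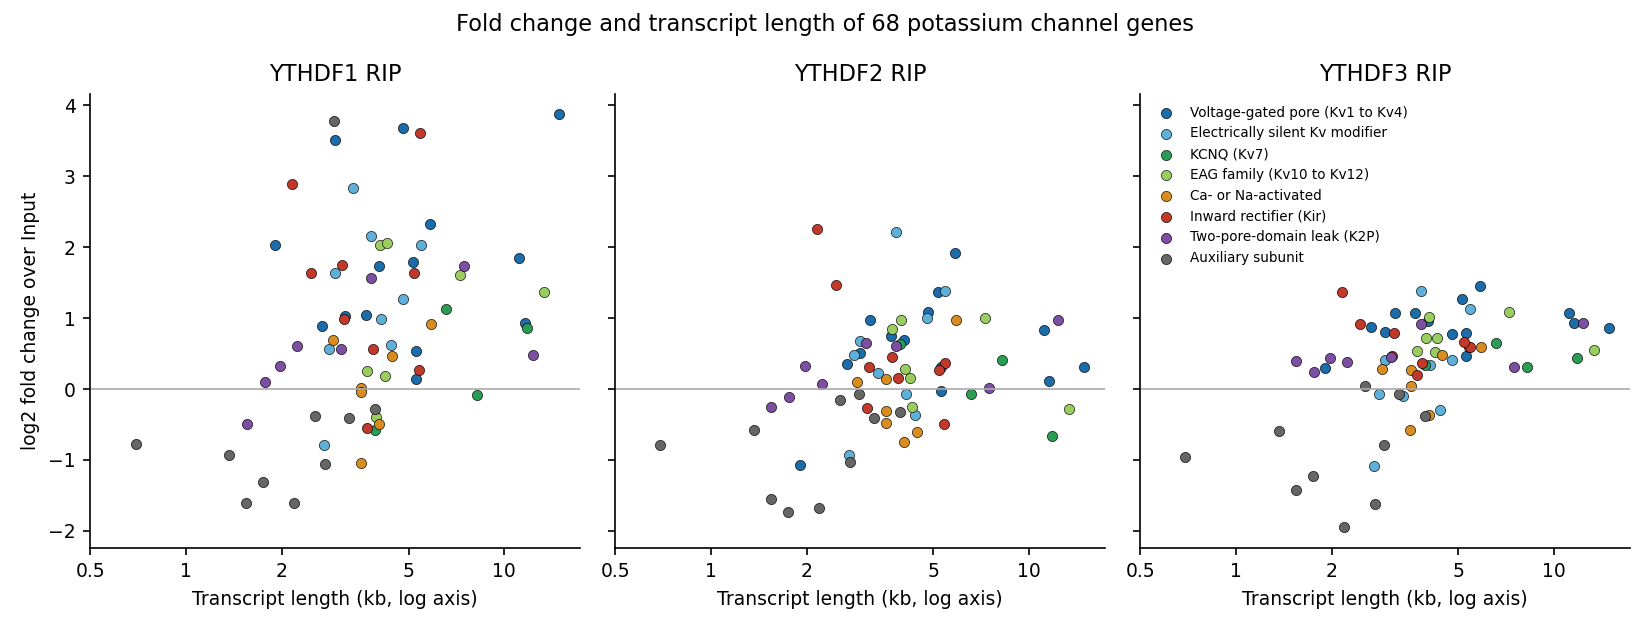
Log2 fold change over Input against representative transcript length on a log axis, for the 68 potassium channel genes in the 3 RIPs, with colours for the class. Spearman's rho is 0.606, 0.41 and 0.614 across coding genes and 0.365, 0.294 and 0.486 across the channel genes.

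Proteins that partner with these channels, and the related HCN pacemaker channels, were also examined. The genes named here were chosen after their values were seen. Of 33 such genes found in the count table, 29 were tested, with 10 enriched and 5 depleted by YTHDF1, 1 and 5 by YTHDF2 and 4 and 4 by YTHDF3, where 27.2% and 25.8%, 15.7% and 19%, and 16.4% and 23% of all genes were. Ank3, the ankyrin G scaffold that holds KCNQ channels at the axon initial segment, was enriched in all 3 RIPs at log2 fold changes of 2.64, 0.90 and 1.42. Vapa and Vapb, which hold Kv2 clusters at endoplasmic reticulum contacts, were depleted in all 3, at -0.86, -0.97 and -1.22 and at -1.24, -0.64 and -0.93. Akap5, the anchoring protein that brings kinases to M-channels, was enriched by YTHDF1 at 1.89. The Kv4 partner Dpp10 was enriched by YTHDF1 at 1.44, and Nedd4l, a ubiquitin ligase acting on several channels, at 1.19.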

How the data were processed

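Per the labels and the study's methods, total RNA libraries with unique molecular identifiers were made from 9 ng of RNA, and the authors processed them with UMI-tools 1.1.1, cutadapt 3.4, STAR 2.7.7a (GRCm38) and featureCounts 2.0.1 (Ensembl annotation). The authors deposited raw counts of fragments per gene, made with strand and with multi-mapping and multi-overlapping reads counted. Only Kcnk4 shared exonic bases with another gene on its strand (13.1%). The authors' DESeq2 table also holds a mean signal of size-factor-scaled counts, used here only for listing and naming genes, beside their fold changes and p-values, which were not used.

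The 17126 genes whose TMM-normalized count averaged 10 or more across 12 libraries were fitted in 1 quasi-likelihood model of 4 groups with edgeR 4.0.16 (R 4.3.3), with TMM factors computed after the filter and Benjamini-Hochberg adjustment over all of them. Genes were called against Input at a fold of at least 1.25, between RIPs at 2, and at an adjusted p of at most 0.05. Standard errors are the log2 fold change over the square root of F. The biological coefficient of variation was 0.323. The procedure was tested on simulated counts. Libraries come from 3 biological replicates, and the p-values measure the spread between these. Depth limits low genes such as Kcnip4 and Kcnh4 most.

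Per the methods, the lysate of each replicate was split among the 3 RIPs and 1 input, so the replicate number was checked as a pairing. Deviations from the group means correlated between Input and YTHDF3 RIP libraries of the same number at 0.829, 0.528 and 0.804, but at 0.0907, -0.267 and -0.322 for YTHDF1 and 0.178, -0.323 and -0.313 for YTHDF2. For both YTHDF1 and YTHDF2, RIP 1, 2 and 3 correlated best with Input 2, 3 and 1. Whether the numbers of these libraries match those of the inputs was not tested. Paired values are therefore given for YTHDF3, from a fit of its 6 libraries with the number as a block.

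The channel genes, classes and other lists were chosen with earlier results of these data known. Genes named are the 2 highest per class in Input per kilobase, the 4 highest and 4 lowest called fold changes per RIP with a mean of at least 50 normalized counts, the 2 largest called changes per direction between RIPs, and a list of well-known hippocampal channels. Others are said to be named after their values were seen. Some genes that meet these rules are not reported here. Alternatives were other scalings, DESeq2 1.42.0, no filter or a minimum of 50, the block, the 2 groups alone, removal of the length trend by loess (span 0.3) and leaving out each library.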

Additional observations from a re-analysis of the deposited data

How the results depend on the processing

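Counts of channel genes were recomputed under 23 alternatives, 12 of which left out 1 library. With library size alone, 7 genes were depleted by YTHDF1, 20 enriched and 1 depleted by YTHDF3, and 2 differed between the YTHDF2 and YTHDF3 RIPs. Without the filter on low counts, 6 were depleted by YTHDF2, 22 enriched by YTHDF3, 22 differed between the YTHDF1 and YTHDF2 RIPs, 6 between YTHDF2 and YTHDF3, and 26 among the 3 RIPs. With the replicate block in the model of all libraries, 2 were depleted by YTHDF1 and 0 differed between YTHDF2 and YTHDF3. With the 2 groups alone and the replicate block, 19 were enriched and 1 depleted by YTHDF1, 45 and 10 by YTHDF3, 4 differed between YTHDF1 and YTHDF3 (YTHDF2 against YTHDF3 gave 0), and without that block 2 were depleted by YTHDF3. Between fits of 2 groups alone, adding the block moved the genes enriched by YTHDF2 from 12 to 7. In the model of all libraries it moved no other count by more than 1.5 times. With the length trend removed, 5 were enriched by YTHDF2 and 4 by YTHDF3, and with the block added 5 and 6, with 1 depleted by YTHDF2. Leaving out libraries gave 1 to 4 genes depleted by YTHDF1, 5 to 13 enriched and 1 to 4 depleted by YTHDF2, 6 to 17 enriched and 0 to 4 depleted by YTHDF3, 0 to 2 that differed between YTHDF2 and YTHDF3, and 14 to 23 among the RIPs. Spearman's rho of exonic length with log2 fold change, 0.134, 0.0595 and 0.31 in the main fit, became -0.0161 and -0.0656 for YTHDF1 and YTHDF2 at a minimum mean of 50. With the length trend removed it was -0.165, -0.178 and -0.194, or -0.181, -0.173 and -0.195 with the block added. That trend was fitted over all tested genes and not over the channel genes. Of the values of single genes for YTHDF1, that of Kcnj10 was -0.0602 with library size alone and -0.39 to 1.13 without single libraries and that of Kcnma1 -0.11 to 0.69 without single libraries. With the length trend removed, without and with the block, they were -0.20 and -0.20 for Kcnn3, -0.10 and -0.19 for Kcna2, -0.96 and -0.97 for Kcnma1, and -0.42 and -0.47 for Kcnq3. Over 92 values of single genes, alternatives left 1819 on the same side of the threshold, ended 267 calls, added 8 and turned the sign of 12. The cause was not tested. Enrichment has no control antibody, and in groups of 3 no library was tested as an outlier.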
